A study of Mus musculus with 12 samples.

Results

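Tubular injury markers are genes that kidney epithelium is known to express strongly when it is damaged or under repair. The 10 described here were taken by name from the 27412 gene IDs of the deposited table: Havcr1, Lcn2, Clu, Vcam1, Cd44, Krt8, Krt18, Krt19, Krt20 and Sox9. Each name matched 1 Ensembl gene ID, and all 10 genes passed the filter on low counts in the comparison of genotypes.

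The study measured RNA from a thin outer slice of the kidney cortex of male C57BL/6 mice by sequencing with an Illumina TruSeq RNA kit. The HIF2aM3 group held 3 transgenic animals (17-51, 17-53 and 17-56) that carried gamma-HIF2alphaM3, a mutant of the hypoxia-inducible transcription factor subunit HIF2α. The series title names the transgene GGT-HIF2aM3, after the gamma-glutamyl transferase promoter, which is known to be active in the proximal tubule. The WT group held 3 wild-type animals (WT 1, WT 2 and WT 3), neither group received a treatment, and both kidneys of each animal were sequenced, giving 12 libraries. The age of the animals, and whether the 3 transgenic ones come from 1 founder line, are not stated in the sources used here. The animal was the replicate, so n = 3 for each genotype.

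Injured proximal tubule cells are known to lose their transporters and to switch on genes of an embryonic or simple epithelial kind. KIM-1, the product of Havcr1, appears on the luminal membrane and binds phosphatidylserine on dying cells. NGAL, the product of Lcn2, is secreted and binds iron-carrying siderophores, and clusterin, the product of Clu, is a secreted chaperone. Vcam1 and Cd44 encode surface adhesion proteins, the keratins build the intermediate filaments of simple epithelia, and Sox9 encodes a transcription factor of progenitor and repairing tubule cells. In bulk RNA, fewer cells of a type and less RNA per cell cannot be told apart.

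Of the 12 libraries, 11 held 24032148 to 43499743 counts and kidney 2 of 17-51 held 4161829. Levels are given as CPM, counts per 1000000 of the library total after scaling with edgeR's TMM factors. Epas1, the gene that encodes HIF2α, averaged 267 ± 16.7 CPM in HIF2aM3 and 204 ± 30.9 CPM in WT animals (SD, n = 3 each; edgeR log2 fold change 0.39 ± 0.11 SE, adjusted p = 0.0881). Reads of the transgene and of the mouse gene are not separated in these counts. Kidney 2 of 17-56 stood apart from the other libraries, which was known beforehand. It was at least 2-fold above every other library for 89 of 18164 genes tested over the 12 libraries (0.490%), against 29 genes for the next such library, kidney 2 of 17-51. Results are therefore given with and without kidney 2 of 17-56.

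The study concerns a HIF transcription factor, whose binding motif has the core letters ACGTG or GCGTG, so the promoters of the markers that hold this core are shown. RefSeq promoter sequences of the mouse build GRCm38.p6 were matched for 6 of the 10 markers by symbol, as 8 promoters, since Havcr1 has 3 annotated starts. Each sequence is the 250 bases before an annotated start, on the gene's strand, 5′ to 3′, with the HIF core in capitals. The first is one of the 3 Havcr1 starts (chr11:46750918-46751167, plus strand), the second is Krt18 (chr15:102027966-102028215, plus strand) and the third is Cd44 (chr2:102901666-102901915, minus strand).

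Havcr1 promoter: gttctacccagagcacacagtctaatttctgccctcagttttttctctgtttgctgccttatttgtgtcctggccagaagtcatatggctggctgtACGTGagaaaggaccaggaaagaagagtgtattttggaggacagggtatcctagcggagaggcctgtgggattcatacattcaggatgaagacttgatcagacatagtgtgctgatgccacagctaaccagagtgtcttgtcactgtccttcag
Krt18 promoter: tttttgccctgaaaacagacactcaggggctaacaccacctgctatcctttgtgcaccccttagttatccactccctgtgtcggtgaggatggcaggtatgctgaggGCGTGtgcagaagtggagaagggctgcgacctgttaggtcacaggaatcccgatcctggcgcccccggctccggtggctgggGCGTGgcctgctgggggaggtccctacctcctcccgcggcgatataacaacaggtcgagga
Cd44 promoter: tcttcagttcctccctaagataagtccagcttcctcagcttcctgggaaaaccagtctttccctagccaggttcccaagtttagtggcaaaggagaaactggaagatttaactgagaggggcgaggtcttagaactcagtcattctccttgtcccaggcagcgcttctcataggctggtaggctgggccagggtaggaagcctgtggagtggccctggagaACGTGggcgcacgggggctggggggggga

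The core lay 154 bases before the start in this Havcr1 promoter, 143 and 61 bases before it in Krt18 and 29 bases before it in Cd44. A further Havcr1 start held it 239 bases before the start, and the remaining Havcr1 start did not hold it. In all, 4 of the 8 promoters, of 3 of the 6 markers, held ACGTG or GCGTG on either strand, and 38.6% of all 32851 RefSeq promoters cut to the same length did. The letters of the AP-1 motif (TGANTCA), the NF-kB motif and the STAT motif (TTCNNNGAA), searched on both strands, were in 0 of the 8 promoters, and in 6.75%, 0.356% and 7.02% of all promoters. The TATA box (TATAAA) was in 1 of the 8, Krt20, 29 bases before its start, and in 12.4% of all promoters. A match is a description of the letters and not a site of binding.

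Most of the markers were highest in 1 library. Kidney 2 of the HIF2aM3 animal 17-56 gave the highest of the 12 values for 8 of the 10 markers, the exceptions being Krt8 and Clu. Among the 9 markers tested over the 12 libraries it was highest for 7, where 14.6% of all genes were highest in it. For 7 of the 10 markers (Havcr1, Lcn2, Vcam1, Cd44, Krt19, Krt20 and Sox9) that library was at least 2-fold above each of the other 11. Among the tested markers this was 6 of 9, beside 0.490% of all genes. The plot of the markers by library shows each value.

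**Figure D1:**
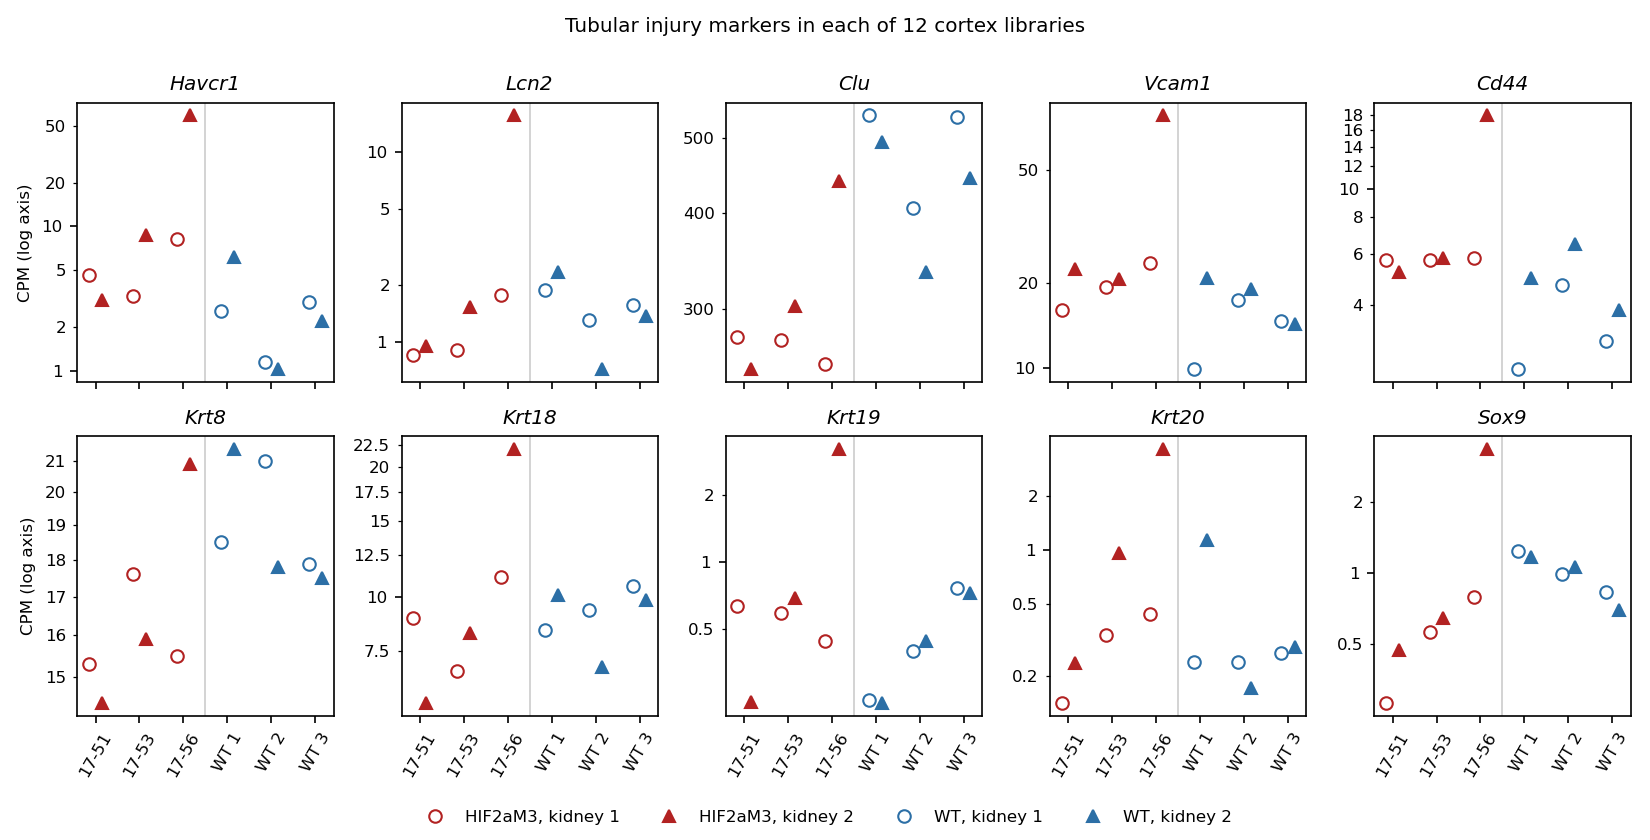
CPM (log axis) of each marker in the 12 libraries, with the HIF2aM3 animals left of the WT animals; open circles are kidney 1 and filled triangles kidney 2. The filled triangle of 17-56 is the highest point for 8 markers, and for Clu the other 5 HIF2aM3 libraries (251 to 303 CPM) lie below all 6 WT libraries (335 to 534 CPM).

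Havcr1 encodes KIM-1, a phosphatidylserine receptor of the injured proximal tubule. In HIF2aM3 animals it was at 4.57 and 3.08 CPM in kidneys 1 and 2 of 17-51, at 3.31 and 8.74 CPM in those of 17-53, and at 8.17 and 58.8 CPM in those of 17-56. In WT animals it was at 2.61 and 6.12 CPM in WT 1, 1.15 and 1.02 CPM in WT 2, and 2.97 and 2.21 CPM in WT 3. Kidney 2 of 17-56 was 6.73 times the highest of the other 11 libraries, and the other HIF2aM3 libraries overlapped the WT libraries through kidney 2 of WT 1. Summed per animal, Havcr1 averaged 13.6 ± 14.7 CPM in HIF2aM3 and 2.68 ± 1.65 CPM in WT animals (SD, n = 3 each), a ratio of 5.21. The log2 fold change was 2.38 ± 0.86 (SE) and missed the threshold of 0.05 (edgeR adjusted p = 0.155). It was 1.21 ± 0.47 without kidney 2 of 17-56 (edgeR adjusted p = 0.184). With the whole animal 17-56 left out it was 0.98 (edgeR adjusted p = 0.374). The animals overlapped only just, 17-51 at 4.37 CPM and WT 1 at 4.39 CPM.

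Lcn2 encodes NGAL, a secreted siderophore-binding protein used as a urinary marker of kidney injury. In HIF2aM3 animals it was at 0.850 and 0.947 CPM in 17-51, 0.908 and 1.53 CPM in 17-53, and 1.77 and 15.6 CPM in 17-56 (kidneys 1 and 2 in each pair). In WT animals the values were 1.89 and 2.34 CPM in WT 1, 1.31 and 0.717 CPM in WT 2, and 1.57 and 1.37 CPM in WT 3. Apart from kidney 2 of 17-56, the HIF2aM3 libraries lay within the WT range. The means were 3.31 ± 3.95 CPM in HIF2aM3 and 1.54 ± 0.539 CPM in WT animals (SD, n = 3 each), with a log2 fold change of 1.14 ± 0.83 (edgeR adjusted p = 0.438). Leaving out kidney 2 of 17-56 turned the sign, to -0.27 ± 0.32 (edgeR adjusted p = 0.657).

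Clu encodes clusterin, a secreted chaperone, and had the highest level of the markers. Its HIF2aM3 values were 276 and 251 CPM in 17-51, 274 and 303 CPM in 17-53, and 255 and 439 CPM in 17-56. Its WT values were 534 and 494 CPM in WT 1, 406 and 335 CPM in WT 2, and 532 and 444 CPM in WT 3. Kidney 2 of 17-56 was the only HIF2aM3 library within the WT range, and Clu was the only marker whose other 5 HIF2aM3 libraries did not overlap the 6 WT libraries, beside 13.8% of all genes. Clu averaged 298 ± 32.5 CPM in HIF2aM3 and 457 ± 73.4 CPM in WT animals (SD, n = 3 each), and all 3 HIF2aM3 animals were lower than all 3 WT animals. The log2 fold change of -0.62 ± 0.13 missed that threshold (edgeR adjusted p = 0.0519). Once kidney 2 of 17-56 was left out, Clu was lower in HIF2aM3 by edgeR's test, with a log2 fold change of -0.76 ± 0.12 (adjusted p = 0.0245). In kidney 1 alone, 1 library an animal, it was -0.87 (edgeR adjusted p = 0.0109), and in kidney 2 alone -0.35 (edgeR adjusted p = 0.434). With all 12 libraries Clu passed under DESeq2 (adjusted p = 0.000143), and in edgeR with library size alone (adjusted p = 0.0485), with no filter on low counts (adjusted p = 0.0390) and with a filter of a mean of at least 1 CPM (adjusted p = 0.0488). The call thus depended on the libraries, the tool, the scaling and the filter, while the sign was negative under all 30 alternative settings run.

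Vcam1 encodes an adhesion protein that binds integrins of leukocytes. Its HIF2aM3 values were 16.0 and 22.3 CPM in 17-51, 19.4 and 20.7 CPM in 17-53, and 23.5 and 78.2 CPM in 17-56. Its WT values were 9.88 and 20.8 CPM in WT 1, 17.4 and 19.0 CPM in WT 2, and 14.6 and 14.3 CPM in WT 3. Besides the high library, the genotypes overlapped. Vcam1 averaged 28.1 ± 16.9 CPM in HIF2aM3 and 16.0 ± 1.87 CPM in WT animals (SD, n = 3 each), with a log2 fold change of 0.82 ± 0.39 (edgeR adjusted p = 0.245), and of 0.32 ± 0.13 without kidney 2 of 17-56 (edgeR adjusted p = 0.197).

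Cd44 encodes the hyaluronan receptor, a surface protein of activated epithelium and of leukocytes. The HIF2aM3 values were 5.74 and 5.21 CPM in 17-51, 5.72 and 5.80 CPM in 17-53, and 5.83 and 17.9 CPM in 17-56, so that 5 of the 6 libraries lay close together. The WT values were 2.41 and 4.95 CPM in WT 1, 4.69 and 6.49 CPM in WT 2, and 3.01 and 3.84 CPM in WT 3, of which only kidney 2 of WT 2 reached the HIF2aM3 range. The means were 7.52 ± 3.14 CPM in HIF2aM3 and 4.2 ± 1.10 CPM in WT animals (SD, n = 3 each). The animals did not overlap, with 17-51 at 5.66 CPM as the lowest HIF2aM3 animal and WT 2 at 5.47 CPM as the highest WT animal. The log2 fold change was 0.84 ± 0.31 (edgeR adjusted p = 0.159), and 0.44 ± 0.18 without kidney 2 of 17-56 (edgeR adjusted p = 0.186). DESeq2 called Cd44 higher in HIF2aM3 animals on the same counts (adjusted p = 0.0365).

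Krt8 and Krt18 encode the keratin partners that pair in simple epithelia, and both genes lie on chromosome 15. Krt8 was the most even of the markers, from 14.4 to 20.9 CPM (median 15.7) in HIF2aM3 and from 17.5 to 21.4 CPM (median 18.2) in WT libraries. Its highest HIF2aM3 library was again kidney 2 of 17-56, which stood behind only 2 WT libraries, and the other 5 (14.4 to 17.6 CPM) met the WT range only at its lower end. Krt8 averaged 16.6 ± 1.31 CPM in HIF2aM3 and 19.1 ± 1.25 CPM in WT animals (SD, n = 3 each; log2 fold change -0.20 ± 0.08, edgeR adjusted p = 0.186). It was -0.27 ± 0.07 without kidney 2 of 17-56 (edgeR adjusted p = 0.0825). A Krt8 pseudogene is annotated, and reads could be split between the copies, so the Krt8 level is uncertain. Krt18 ran from 5.68 to 22.0 CPM (median 8.61) in HIF2aM3 and from 6.90 to 10.6 CPM (median 9.60) in WT libraries. Kidney 2 of 17-56 was 1.99 times the next library, which was kidney 1 of the same animal at 11.1 CPM. The log2 fold change of Krt18 was 0.20 ± 0.28 (edgeR adjusted p = 0.690), and -0.06 ± 0.15 without kidney 2 of 17-56 (edgeR adjusted p = 0.860).

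Krt19, a keratin of ducts and simple epithelia, and Krt20, a keratin best known from gut and urothelium, were near the limit of these libraries. Krt19 was at 3.22 CPM in kidney 2 of 17-56, from 81 reads, and between 0.237 and 0.695 CPM in the other HIF2aM3 libraries, from 1 to 29 reads. In WT libraries it was between 0.234 and 0.768 CPM. Krt20 was at 3.62 CPM in kidney 2 of 17-56, from 91 reads, and between 0.142 and 0.958 CPM in the other HIF2aM3 libraries. In WT libraries Krt20 was highest in kidney 2 of WT 1 at 1.13 CPM, the other 5 having 0.171 to 0.291 CPM. Both genes overlapped between the genotypes once kidney 2 of 17-56 was set aside. The log2 fold changes were 1.04 ± 0.53 for Krt19 (edgeR adjusted p = 0.275) and 1.25 ± 0.80 for Krt20 (edgeR adjusted p = 0.372). Without kidney 2 of 17-56 they were 0.25 ± 0.40 for Krt19 (edgeR adjusted p = 0.751) and 0.21 ± 0.57 for Krt20 (edgeR adjusted p = 0.859).

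Sox9, a transcription factor known from regenerating tubules, was at 0.283 and 0.473 CPM in 17-51, 0.567 and 0.647 CPM in 17-53, and 0.792 and 3.34 CPM in 17-56. In WT animals it was at 1.24 and 1.17 CPM in WT 1, 0.992 and 1.06 CPM in WT 2, and 0.835 and 0.698 CPM in WT 3. Set apart from kidney 2 of 17-56, the HIF2aM3 libraries were thus at or under the low end of the WT range, and only kidney 1 of 17-56 reached into it. The counts behind these values were low, 2 reads in kidney 2 of 17-51 and 84 in kidney 2 of 17-56. Sox9 averaged 0.943 ± 0.855 CPM in HIF2aM3 and 0.995 ± 0.225 CPM in WT animals (SD, n = 3 each; log2 fold change -0.03 ± 0.58, edgeR adjusted p = 0.982). Without kidney 2 of 17-56 the log2 fold change was -0.80 ± 0.32 (edgeR adjusted p = 0.188).

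Counted over the list, 0 of the 10 markers passed the edgeR test between HIF2aM3 and WT animals, where 733 of 19564 genes (3.75%) did (1.93% higher and 1.82% lower). DESeq2 called 2, Cd44 higher and Clu lower, and its share of all genes is not given here. At an unadjusted p under 0.05 there were 4 markers (Havcr1, Cd44, Krt8 and Clu), beside 24.9% of all genes. The log2 fold change was positive for 7 markers and negative for 3, with a median of 0.83, the median of all genes tested being 0.0049. When kidney 2 of 17-56 was left out it was positive for 5 and negative for 5, with a median of 0.08 (all genes -0.0051). In that fit 1 marker, Clu, was called, beside 3.37% of all genes (1.61% higher and 1.76% lower), and 6 had an unadjusted p under 0.05, beside 23.6%. The 3 animals of each genotype did not overlap for 2 markers, Cd44 (higher in HIF2aM3) and Clu (lower in HIF2aM3), beside 32.0% of all genes (15.5% higher and 16.5% lower). By edgeR at the adjusted threshold the list thus held 0 calls with all libraries and 1 without kidney 2 of 17-56.

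**Figure D2:**
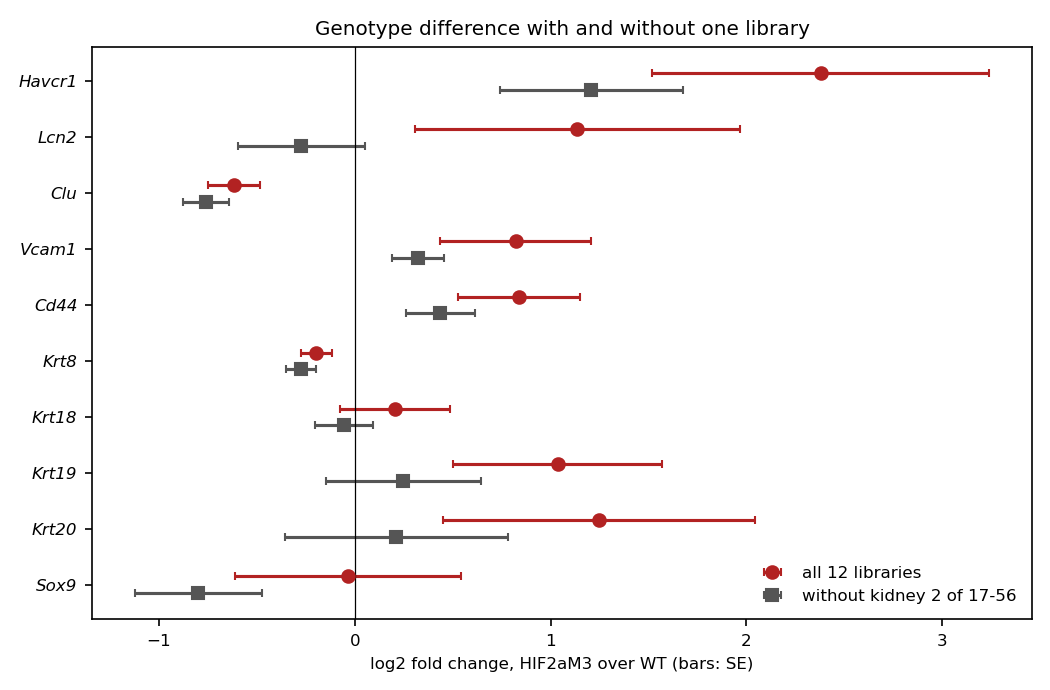
Log2 fold change of each marker, HIF2aM3 over WT, from edgeR on 3 animals a genotype; bars are standard errors, circles use all 12 libraries and squares leave out kidney 2 of 17-56. Lcn2 (1.14 against -0.27) and Krt18 (0.20 against -0.06) change sign without that library, Sox9 moves to -0.80 from -0.03, and Clu (-0.62 and -0.76) stays negative.

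The kidneys of each animal were compared as a description, since kidney 2 of 17-56 was known beforehand to stand apart. All 10 markers had their largest ratio of kidney 2 to kidney 1 in 17-56, out of the 6 animals, where 20.3% of all genes tested did. The genes tested include 9 of the markers and not Krt20. In 17-56 the ratio was 7.20 for Havcr1 (95% interval 6.30 to 8.25), from 1478 reads in kidney 2 and 258 in kidney 1. It was 8.80 for Lcn2 (6.64 to 11.9), from 392 and 56 reads. These exact binomial intervals cover counting error only. The ratio in 17-56 was 7.27 for Krt19 (4.09 to 13.9), 8.17 for Krt20 (4.63 to 15.5) and 4.22 for Sox9 (2.68 to 6.89). It was 3.33 for Vcam1 (3.06 to 3.63) and 3.07 for Cd44 (2.58 to 3.67). The smallest ratios were 1.99 for Krt18 (1.74 to 2.28), 1.72 for Clu (1.67 to 1.77) and 1.35 for Krt8 (1.19 to 1.53). At least 2-fold were 7 of the 10 ratios, and 6 of the 9 among tested markers, beside 2.48% of all genes.

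Other animals showed smaller differences of the same direction for some markers. In WT 1, kidney 2 was above kidney 1 by a ratio of 2.35 for Havcr1 (1.75 to 3.18), 2.11 for Vcam1 (1.81 to 2.46), 2.06 for Cd44 and 4.70 for Krt20 (1.92 to 13.8, from 29 and 6 reads). In 17-53 it was 2.64 for Havcr1 (2.17 to 3.22) and 2.81 for Krt20 (1.52 to 5.49). Clu ran the other way in the WT animals, kidney 2 being below kidney 1 with ratios of 0.924, 0.825 and 0.834 in WT 1, WT 2 and WT 3. The sources used here do not say what the kidney numbers stand for.

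**Figure D3:**
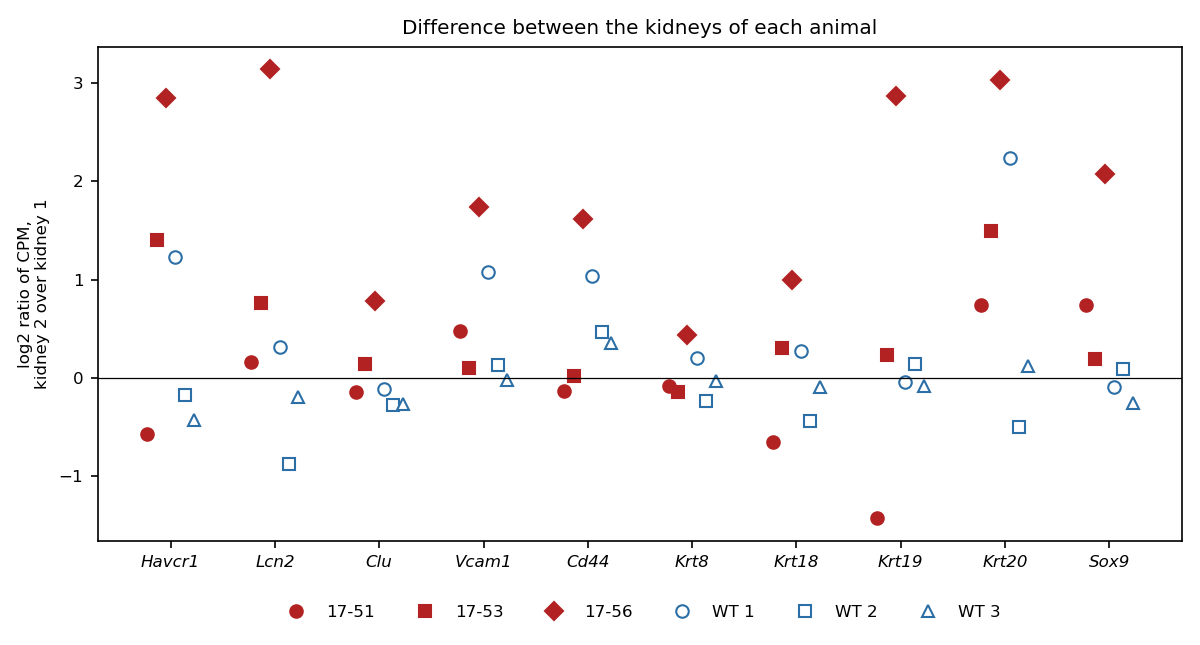
Log2 ratio of CPM in kidney 2 over kidney 1 for each marker, 1 point an animal; filled symbols are the HIF2aM3 animals and open symbols the WT animals. The diamond of 17-56 is the highest point for all 10 markers, and Krt19 of 17-51, the lowest point, rests on 1 read in kidney 2.

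Over the 6 animals, the edgeR test of kidney 2 against kidney 1 with the animal as a block called 0 of the 9 markers tested, and 0 had an unadjusted p under 0.05. Over all genes it called 17 of 18164 (0.0936%), and 8.57% had an unadjusted p under 0.05. Krt20 did not pass that fit's filter on low counts. The largest log2 difference was that of Havcr1, 1.35 ± 0.55 (edgeR adjusted p = 0.605). The term for a kidney difference that depends on genotype was called for 0 markers and 0 of all genes. At an unadjusted p under 0.05 it held 1 marker, Sox9 (1.31 ± 0.45, unadjusted p = 0.0101 in edgeR, adjusted p = 1.00), beside 2.94% of all genes.

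To set the markers' levels side by side, CPM were divided by the merged exon length of each gene in kilobases (GENCODE M21). In WT animals Clu was at 133 CPM per kb, Krt8 at 9.73, Krt18 at 6.42, Vcam1 at 1.80, Havcr1 at 1.16, Cd44 at 0.620, Lcn2 at 0.588, Krt19 at 0.252, Sox9 at 0.241 and Krt20 at 0.204 CPM per kb. Clu, Krt8 and Krt18 each lay above the next gene in every WT animal, and from Vcam1 down the neighbours in this order overlapped between animals. In HIF2aM3 animals the order was Clu at 86.8 CPM per kb, Krt8 at 8.47, Krt18 at 7.38, Havcr1 at 5.89, Vcam1 at 3.17, Lcn2 at 1.26, Cd44 at 1.11, Krt19 at 0.520, Krt20 at 0.456 and Sox9 at 0.228 CPM per kb. Only Clu was separate from its neighbour there. With 17-56 taken from its kidney 1 alone, Havcr1 was at 2.67, Vcam1 at 2.26, Cd44 at 0.848, Lcn2 at 0.489, Krt19 at 0.300, Krt20 at 0.214 and Sox9 at 0.137 CPM per kb in HIF2aM3 animals, so that Lcn2 came below Cd44. Clu (79.05 CPM per kb), Krt8 (8.075) and Krt18 (6.27) were then each separate from the next gene, as were Vcam1 and Cd44. The deposited RPKM were not used for this order, because the length they imply was 53637 bases for Cd44, against 6776 bases of merged exons. Merged exons can also exceed a transcript. They were 2623 bases for Lcn2 and 8870 for Vcam1, against 1374 and 4088 in the longest transcript, and 5614 in that of Cd44. The places of Lcn2, Vcam1 and Cd44, and their separation from neighbours, may thus differ with another length.

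**Figure D4:**
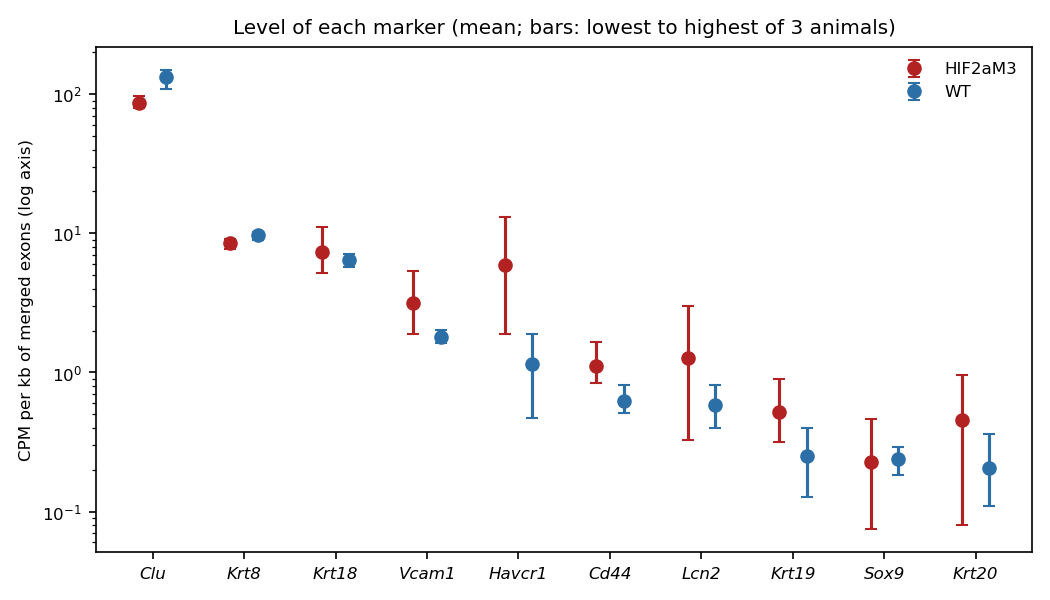
CPM per kilobase of merged exons (log axis) of each marker, mean of 3 animals with bars from the lowest to the highest animal, HIF2aM3 left of WT. Clu is the highest in both genotypes (86.8 in HIF2aM3 and 133 in WT animals), and the HIF2aM3 bars of Havcr1, Lcn2, Krt20 and Sox9 are wide, 17-56 being the highest animal.

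Other genes of the injury response were read from 5 lists of 70 genes. Of these, 66 were tested between the genotypes, 2 were higher in HIF2aM3, 0 were lower and 64 did not pass, beside 3.75% of all genes called (1.93% higher and 1.82% lower). DESeq2 called 14 of the 66, 12 higher and 2 lower. The 3.75% is the share called by edgeR, and the share of all genes that DESeq2 called is not given here. The 2 genes that edgeR called higher were Anxa5, which encodes a phosphatidylserine-binding annexin, and Myc, a growth transcription factor. Anxa5 averaged 99.7 ± 5.63 CPM in HIF2aM3 and 68.7 ± 7.35 CPM in WT animals (log2 fold change 0.54 ± 0.08, edgeR adjusted p = 0.0265). Myc averaged 8.92 ± 2.38 CPM in HIF2aM3 and 4.49 ± 0.679 CPM in WT animals (log2 fold change 0.97 ± 0.20, edgeR adjusted p = 0.0490), and its level in kidney 2 of 17-56 was 8.60 CPM, within the range of the other HIF2aM3 libraries (7.11 to 14.2 CPM). Without kidney 2 of 17-56 Anxa5 was called higher (edgeR adjusted p = 0.0309), Myc was not (edgeR adjusted p = 0.0617), and Wfdc2, a secreted protease inhibitor-like protein, was called lower (log2 fold change -0.30 ± 0.06, edgeR adjusted p = 0.0442). The median log2 fold change of the 66 genes was 0.18, and 0.02 without that library.

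By list, 0 of 13 tested secreted and urinary injury proteins, 0 of 15 genes of failed repair and dedifferentiation and 0 of 14 genes of chemokines, adhesion and NF-kB passed, against 1 of 14 genes of stress and growth (Myc) and 1 of 10 annexins and S100 proteins (Anxa5), where 3.75% of all genes passed. DESeq2 also called members of lists without an edgeR call, namely Fgb, Timp2 and Wfdc2 of the secreted list and Akap12, Dcdc2a, Itgb6 and Prom1 of the failed repair list. The gene with the smallest p in the lists without a call was Wfdc2 among the secreted proteins, at 56.9 ± 3.01 CPM in HIF2aM3 and 66.9 ± 4.24 CPM in WT animals (log2 fold change -0.23 ± 0.07, edgeR adjusted p = 0.0877). Akap12, a scaffold protein gene of the failed repair list, was at 22.9 ± 2.45 CPM in HIF2aM3 and 14.1 ± 3.13 CPM in WT animals (log2 fold change 0.70 ± 0.16, edgeR adjusted p = 0.0599). Tnfaip3, an inhibitor of NF-kB signalling, was at 10.4 ± 0.897 CPM in HIF2aM3 and 7.91 ± 1.56 CPM in WT animals (log2 fold change 0.40 ± 0.14, edgeR adjusted p = 0.146).

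Kidney 2 of 17-56 was the highest of the 12 libraries for 41 of these 66 genes, beside 14.6% of all genes. It was at least 2-fold above each other library for 10, beside 0.490% of all genes. Spp1, which encodes the secreted phosphoprotein osteopontin, was at 1744 CPM there, between 651 and 768 CPM in the other HIF2aM3 libraries and between 670 and 834 CPM in WT libraries. C3, the central complement component, was at 164 CPM there, between 16.1 and 37.4 CPM in the other HIF2aM3 libraries and between 26.3 and 61.6 CPM in WT libraries. Dcdc2a, of the failed repair list, was at 56.9 CPM there, between 20.0 and 22.7 CPM in the other HIF2aM3 libraries and between 12.4 and 18.5 CPM in WT libraries. These 3 examples, and Timp1 and Cp of the secreted list, Cdh6 of the failed repair list, Atf3 of the stress list, Ccl2 and Cxcl1 of the chemokine list and S100a6 of the annexin and S100 list, are the 10, named after their values were seen.

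**Figure D5:**
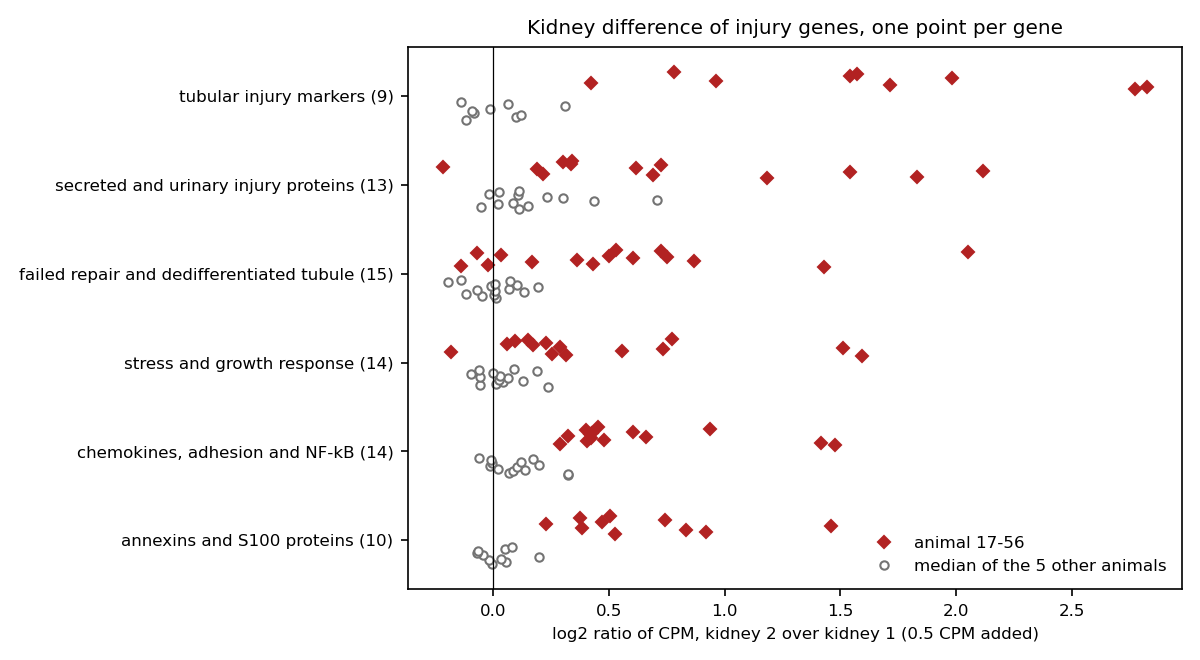
Log2 ratio of CPM in kidney 2 over kidney 1 (0.5 CPM added), 1 point a gene for the genes tested over the 12 libraries, by list; diamonds are the ratio in 17-56 and circles the median of the 5 other animals. The markers' diamonds have a median of 1.57, and those of the wider lists have medians from 0.27 to 0.62.

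Markers of some other cell types moved with kidney 2 of 17-56, and those of others did not. The sums of 10 endothelial (679 CPM), 10 podocyte (919 CPM) and 10 principal cell genes (499 CPM) there lay within the ranges of the other HIF2aM3 libraries. Those ranges were 664 to 725, 843 to 966 and 483 to 621 CPM. The sum of 10 loop of Henle and distal tubule genes was 4462 CPM there, 4604 to 5361 CPM in the other HIF2aM3 libraries and 4556 to 6918 CPM in WT libraries. For 10 intercalated cell genes it was 421 CPM there, 438 to 596 CPM in the other HIF2aM3 libraries and 519 to 630 CPM in WT libraries. Both sums were thus the lowest of the 12 libraries there, but the kidney difference in 17-56 was within that of the other animals. The median log2 ratio of kidney 2 to kidney 1 in 17-56 was -0.13 for loop and distal genes (other animals -0.24 to 0.06). For intercalated cell genes it was -0.08 (other animals -0.13 to 0.21). The summed level of 10 leukocyte genes was 192 CPM there, 135 to 139 CPM in the other HIF2aM3 libraries and 76.6 to 147 CPM in WT libraries, and 8 of the 10 were highest there. The sum of 10 fibroblast and pericyte genes was 511 CPM there, 254 to 299 CPM in the other HIF2aM3 libraries and 124 to 303 CPM in WT libraries, and that of 8 parietal epithelium genes was 373 CPM there, 226 to 281 CPM in the other HIF2aM3 libraries and 113 to 190 CPM in WT libraries. The sum of 12 proximal tubule genes was 17986 CPM there, 19936 to 21184 CPM in the other HIF2aM3 libraries and 20770 to 21622 CPM in WT libraries. Of these genes, 2 were instead highest of all libraries there, Lrp2 (2624 CPM) and Cubn (702 CPM). The largest member, Slc34a1, was at 5173 CPM there and at 6143 to 6863 CPM in the other HIF2aM3 libraries. The neutrophil sum, for a cell type that is known to hold much Lcn2, was 2.87 CPM there, 2.63 to 5.21 CPM in the other HIF2aM3 libraries and 1.26 to 5.07 CPM in WT libraries, and 7 of its 9 matched genes stayed under 1 CPM in all 12 libraries. Of 9 urothelium genes, 7 were under 1 CPM in all libraries; Psca was at 1.79 CPM in kidney 2 of 17-56 and at most 0.239 CPM elsewhere, while Upk2, Krt13 and Krt17 were at 0 there. The part of these cell types in the marker levels was not tested.

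Between the genotypes, some genes of the cell type lists were called by edgeR, where 1.93% of all genes were higher and 1.82% lower. In HIF2aM3 animals 4 of 10 principal cell genes were lower and 0 higher, among them Scnn1a, a subunit of the epithelial sodium channel (log2 fold change -0.81 ± 0.10, edgeR adjusted p = 0.0143), and Krt7, a keratin of the collecting duct (-0.54 ± 0.09, edgeR adjusted p = 0.0302). Their sum was 483 to 621 CPM in HIF2aM3 and 742 to 851 CPM in WT libraries. Of 10 leukocyte genes 1 was higher, Csf1r, the receptor of macrophage colony-stimulating factor (0.58 ± 0.10, edgeR adjusted p = 0.0349), and of 8 parietal epithelium genes 1 was higher, Cldn1, a tight junction claudin (1.03 ± 0.16, edgeR adjusted p = 0.0281). The endothelial genes Kdr (0.70 ± 0.12, edgeR adjusted p = 0.0302) and Erg (0.62 ± 0.12, edgeR adjusted p = 0.0412) were higher, as 2 of 3 called among 10. Of 10 intercalated cell genes 1 was lower, Foxi1 (-1.01 ± 0.19, edgeR adjusted p = 0.0432), the log2 fold change being positive for 3 and negative for 7. Of 10 loop of Henle and distal tubule genes 1 was lower, Kcnj10 (-0.50 ± 0.08, edgeR adjusted p = 0.0286), with 1 positive and 9 negative. Of 12 proximal tubule genes, 6 positive and 6 negative, Slc22a6 was lower (-0.50 ± 0.11, edgeR adjusted p = 0.0483) and Slc5a12 was higher (0.49 ± 0.10, edgeR adjusted p = 0.0483). Of these named genes, Slc22a6 and Slc5a12 lost the call without kidney 2 of 17-56 (edgeR adjusted p = 0.0526 for Slc22a6 and 0.0517 for Slc5a12), and the others kept it. Their part in the marker values was not tested.

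The genes most like each marker in pattern were sought among 12263 genes of at least 5 CPM, by Pearson's r of log2(CPM + 0.5) over the 12 libraries, which come from 6 animals and are not independent. For Havcr1 they were Ago1 (0.96), Farp1 (0.96) and Aoc1 (0.93). For Vcam1 they were Cp (0.98), Fblim1 (0.96) and the fellow marker Cd44 (0.95), and for Cd44 they were Rbm43 (0.959), Anxa2 (0.958) and Cmtm3 (0.955). For Clu they were Daglb, Rubcn and Pmepa1 (each 0.94), for Krt18 Ski and Ryk (both 0.90) and Spp1 (0.89), and for Krt8 they included Tuba1a (0.93) and Arl4c (0.87). Over the 11 libraries without kidney 2 of 17-56, Ago1 was still among the 3 most like Havcr1 (0.91) and Cp among those most like Vcam1 (0.93). The other nearest genes differed, Clu having Lrp10 (0.98), Syngr2 (0.97) and Rangap1 (0.97). Lcn2, Krt19, Krt20 and Sox9 were under 5 CPM on average and were not examined.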

How the data were processed

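The deposited table gives raw read counts for each gene and library, without scaling, per the file headers. It also holds the authors' RPKM and their log2 RPKM, mean signal (average count) a genotype, ratio (fold) of mean RPKM, p-values, q-values and t score, per the file headers. Of these only the counts and, in alternatives, the RPKM were used. That about 1 read was added to each count before the RPKM were made is inferred from the values and not from the headers. The mouse build was mm9, as the submitters' processing notes state; the sources used here do not name the aligner, counting program or strand setting. Symbols came from GENCODE M21, another build, used for names, overlaps and lengths only; 2782 IDs without a symbol held 1.18% of counts and stayed in the library totals and tests. Vcam1, Krt8 and Cd44 overlap a small gene on the opposite strand there.

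Both kidneys of an animal were added together and genotypes compared with edgeR 4.0.16 in R 4.3.3 (filterByExpr, TMM, robust quasi-likelihood, two-sided, Benjamini-Hochberg over all genes, threshold 0.05). SE equals the unsigned log2 fold change divided by the root of F. Kidneys were compared over 12 libraries with the animal, which the labels give, as a block. The fit was tested on simulated data, with changes placed in well-counted genes, a capped spread and no library that stood apart. How it performs for markers with few reads or with 1 deviant library was therefore not tested. Alternatives used DESeq2 1.42.0, limma 3.58.1 on log2(RPKM + 1) and log2(RPKM + 0.1), voom with the animal as a random block, other filters and factors, 1 kidney only, and animals or libraries left out; leaving out each of the other 10 libraries was chosen after seeing the data.

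All 10 markers are named. Other named genes are the members past the threshold in each wider list (at most 4; below 2, the 1 member of smallest p), at most 2 of each cell type list, where podocyte, fibroblast, neutrophil and urothelium genes gave 0 calls, and Epas1. A gene that resembled Krt8 in pattern is not reported here. The markers and lists were chosen with earlier results of these data known. No source used here names a batch.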

Additional observations from a re-analysis of the deposited data

Results flagged for a closer look

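Within the 6 libraries of each genotype, 10 of 20 sets (10 markers in 2 genotypes) held a library far from the others, its gap to the nearest exceeding 0.625 of the range. Chance flags about 1 in 20 groups of independent values, a rate that does not apply here. The kidneys of an animal are not independent, and kidney 2 of 17-56 was known beforehand to stand apart. The flags therefore describe the libraries and test nothing. Of the 10, 9 were kidney 2 of the HIF2aM3 animal 17-56. The values there were 58.8 CPM for Havcr1, 15.6 CPM for Lcn2, 78.2 CPM for Vcam1, 22.0 CPM for Krt18 and 3.22 CPM for Krt19. They were 3.62 CPM for Krt20, 17.9 CPM for Cd44, 3.34 CPM for Sox9 and 439 CPM for Clu. Krt8 was not among them. The tenth was Krt20 at 1.13 CPM in kidney 2 of WT 1.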

How the results depend on the processing

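The count of markers called between the genotypes, 0 of 10, was 2 with DESeq2 (Cd44 higher, Clu lower). It was 1 (Clu lower) with kidney 1 only, library size alone, a mean of at least 1 CPM (which removes Krt19, Krt20 and Sox9), no filter, without kidney 2 of 17-56, and without kidney 2 of both 17-51 and 17-56. Leaving out animals or libraries gave 0 to 1: Clu was called without WT 2, and without kidney 1 of 17-51, kidney 1 of WT 1 or kidney 2 of WT 2. Clu's log2 fold change ran from -0.87 to -0.35, with adjusted p from 0.000143 to 0.434, over 30 alternatives. Havcr1 ran from 0.91 to 3.09 with no call. Between the genotypes, the share of all genes called is given here only for the main fit and the fit without kidney 2 of 17-56. Counts under the other settings therefore cannot be set against all genes.

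The wider lists' count of 2 was 8 with 12 libraries and the animal as a random block, 14 with DESeq2, 4 with kidney 1 only, 1 with kidney 2 only, 1 with limma on RPKM plus 0.1 or plus 1, and 0 with RPKM plus 1 unfiltered; leave-outs gave 0 to 6. The same limit holds for these counts, so a larger count does not show that injury genes were called more often than other genes. The kidney comparison called 0 markers, also with no replicate block, and leave-outs gave 0 to 1 (Krt20 without WT 2). The genotype-dependent kidney difference gave 0 throughout, also with no replicate block.

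Signs turned for 3 markers. Lcn2 was -0.42 in kidney 1 only, -0.53 without 17-56, and -0.27 without kidney 2 of 17-56, with or without that of 17-51. Krt18 was -0.0858, -0.21, -0.0554 and -0.033 in kidney 1 only, without 17-56, without kidney 2 of 17-56 and without both. Sox9 was 0.79 in kidney 2 only, 0.0105 with limma on RPKM plus 1, filtered or not. Over the leave-outs of an animal or library Lcn2 ran from -0.53 to 1.87, Krt18 from -0.21 to 0.42 and Sox9 from -1.02 to 0.41. The cause was not tested. Low reads limit Krt19, Krt20 and Sox9, and kidney 2 of 17-51 is shallow. Other scalings left the median log2 fold change of all genes at or under 0.03.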
